A study of Mus musculus with 12 samples.

Results

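Genes of the nuclear pore and of the receptors that carry cargo through it were followed in WT and *Alkbh5*-null (KO) mouse oocytes during meiotic maturation. The 44 genes were taken by symbol from the 56691 genes of the count table: 21 symbols that begin with Nup and a number, and 23 that begin with Kpna, Kpnb, Ipo, Xpo or Tnpo, with Xpo5 left out. The 12 libraries of messenger RNA made 6 groups of 2, one group per genotype and labelled stage. Germinal vesicle (GV) oocytes are arrested with an intact nucleus, GVBD oocytes have broken the nucleus down, and MII oocytes stand at the second meiotic arrest.

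All mice were of the C57BL/6 background, and by the sequencing methods oocytes came from females of 3 weeks after priming with gonadotropin. The study's reporting form gives an older age for oocyte collection. KO animals carried a whole-body deletion of the first *Alkbh5* exon made with CRISPR-Cas9, so that the RNA demethylase was also missing while the oocytes grew and from the cells around them. By the study's methods each library was a pool of 10 denuded oocytes without zona, while another passage of the study gives a larger number. GVBD and MII samples were taken by time in culture after release from the inhibitor milrinone, and the study describes many KO oocytes that did not advance. KO oocytes at the GVBD and MII times may therefore stand at an earlier stage, and genotype and stage cannot be told apart in those libraries. The study also reports that KO females gave fewer and smaller GV oocytes with a changed nuclear configuration. At GV, genotype and the state of oocyte growth cannot be told apart either. The libraries of a group are described as biologically independent and drawn from several mice. Which females gave which library is not stated, so p-values measure the spread between these libraries only.

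Nuclear pore complexes are built from nucleoporins. A Y-shaped scaffold and an inner ring hold the pore in the membrane, FG nucleoporins fill the channel, and filaments extend on the cytoplasmic side and as a basket into the nucleus. Karyopherins bind cargo and pass the channel: importin alpha adaptors recognise nuclear localisation signals and dock on importin beta, other importins and transportins bind cargo directly, and exportins leave the nucleus together with Ran-GTP. In oocytes the large nucleus stores proteins until GVBD disperses it, and pores must be rebuilt after fertilisation. *Kpna2* is abundant in the ovary, and *Kpna7* is an importin alpha known mainly from oocytes and early embryos.

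Total counts, in units of 1e6, lay between 28.6 and 40.2 per library, of which 221927 to 838409 fell on ERCC sequences, synthetic RNAs added in equal amount to each tube. *Alkbh5* received 5355 to 10181 counts in WT and 54 to 143 in KO libraries. The 10 oocyte markers together received 364850 to 670439 counts in every library. The 12 cumulus or granulosa markers together received 1382 to 2646 counts, of which *Cyp19a1* alone reached 2225, and their summed share was highest in KO MII replicate 2 at 85.8 per 1e6 counts. None of these 12 markers was at 0 throughout. Endogenous counts per ERCC count were lower at MII than at GV, from 104.9 and 98.9 in WT GV to 73.3 and 47.0 in WT MII, and from 127.7 and 111.3 in KO GV to 87.9 and 54.7 in KO MII. Fewer intact oocytes in a tube and less RNA per oocyte cannot be told apart in these pools.

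Levels are given below as counts per kilobase of exon per 1e6 endogenous counts, which allows genes of different length to be compared. On that scale the mean levels of the nucleoporins and karyopherins ranged from 0.01 for *Kpna2-ps* to 381.81 for *Kpna2*. Of the 44, 41 had more than 3 counts in every library, 29 had a mean level of at least 1, 16 of at least 10 and 1 of at least 100. The members together took 0.351% to 0.532% of endogenous counts. That share was 0.355% and 0.362% in WT GV, 0.458% and 0.446% in WT MII. KO GV libraries had 0.406% and 0.409%, and KO MII libraries 0.532% and 0.525%, so that it was higher at MII than at GV in both genotypes without overlap.

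**Figure D1:**
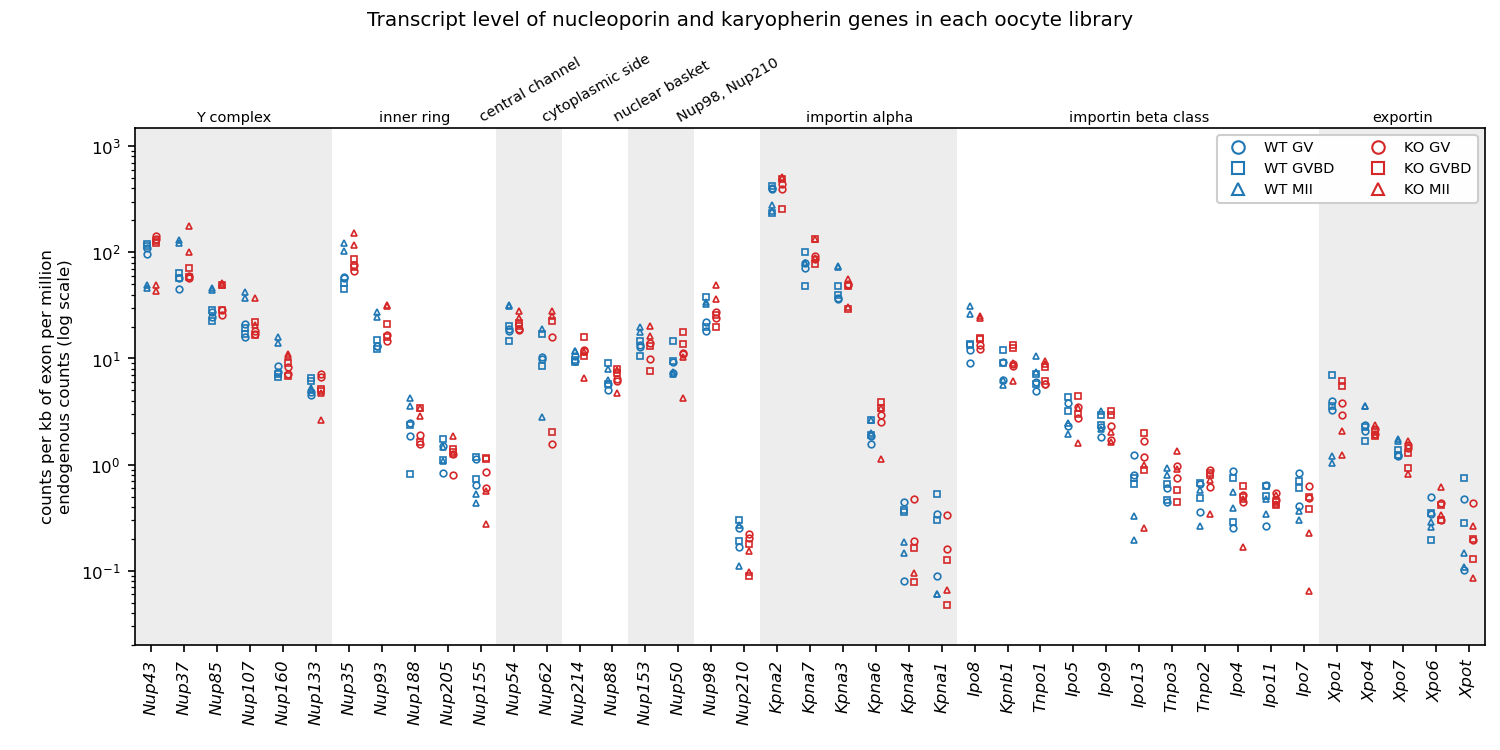
Level of 41 members (counts per kilobase of exon per 1e6 endogenous counts, log axis) in each of the 12 libraries, arranged by role, with WT in blue, KO in red and the stage given by the symbol. The points of *Kpna1* and *Kpna4* in KO MII replicate 2 lie under the lower end of the axis and are not seen. *Kpna2* stands above every other member, and within most role groups a few members hold most of the signal while others lie near or under 1.

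The importin alpha adaptors were led by *Kpna2* (ENSMUSG00000018362, chromosome 11, 106988629 to 106999541, minus strand, GRCm38). Its mean level over the 12 libraries was 381.8. The WT pairs were 392 and 406 (GV), 236 and 423 (GVBD), 278 and 247 (MII). The KO pairs were 398 and 437 (GV), 490 and 258 (GVBD), 514 and 504 (MII). The GVBD libraries of each genotype thus spanned nearly the whole range, whereas at MII both KO libraries lay above both WT libraries. *Kpna7* (chromosome 5, 144983519 to 145084030, minus strand) had a mean of 89.3 and *Kpna3*, another adaptor, 47.8. *Kpna6* lay between 1.13 and 3.90, and *Kpna1* and *Kpna4* stayed under 1 in every library.

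Within the summed level of the 6 adaptors, *Kpna2* took 61.8% to 80.9% of a library, *Kpna7* 13.7% to 20.5% and *Kpna3* 4.5% to 18.1%. The *Kpna2* share was 76.8% and 78.7% in WT GV against 63.9% and 61.8% in WT MII. The KO libraries had 74.0% and 75.1% (GV) and 72.6% and 80.9% (MII). The *Kpna3* share took the opposite course in WT, 7.4% and 7.1% at GV against 17.1% and 18.1% at MII, and in KO was 9.2% and 8.6% at GV against 8.0% and 4.9% at MII. These shares are descriptions chosen after the values were seen. Tested as a stage-by-genotype interaction, the GV to MII change in KO minus that in WT was 0.89 ± 0.60 (log2, SE; unadjusted p = 0.163) for *Kpna2* and -1.07 ± 0.75 (unadjusted p = 0.179) for *Kpna3*, and neither passed (adjusted p of 1 each).

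Among the Y complex scaffold genes, *Nup43* and *Nup37* were high and *Nup133*, between 2.63 and 7.17, the lowest. *Nup43* (chromosome 10, 7667503 to 7678881, plus strand) had a mean level of 96.4. WT pairs of its level were 97.2 and 110 (GV), 115 and 120 (GVBD), 49.7 and 45.8 (MII). KO pairs were 135 and 141 (GV), 124 and 128 (GVBD), 49.1 and 42.8 (MII). Both genotypes therefore reached like levels at MII from a higher level at the earlier stages, and *Nup43* stood at rank 2 among members at GV and at rank 6 at MII in each. *Nup37* (chromosome 10, 88146992 to 88178390, plus strand) had levels of 56.8 and 45.3 in WT GV against 122 and 129 in WT MII. KO libraries had 59.7 and 57.3 (GV) against 99.9 and 176 (MII). It stood at rank 5 at GV and rank 2 at MII in both genotypes. On this scale the MII libraries of *Nup43* thus lay below, and those of *Nup37* above, the GV libraries in both genotypes. With the spike-in, *Nup37* did not pass for MII against GV in WT (log2 fold change 0.52 ± 0.46, adjusted p = 0.446).

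The inner ring was led by *Nup35* (chromosome 2, 80617236 to 80658906, plus strand), a membrane-binding nucleoporin, with a mean level of 84.0. It had 58.7 and 57.9 in WT GV, 102 and 123 in WT MII, 67.1 and 75.4 in KO GV, and 116 and 151 in KO MII. Its exons share 131 bases with *Dusp19* on the same strand, and the part of those reads in the values was not tested. Among the larger scaffold proteins of the ring, *Nup155* lay between 0.28 and 1.17 and *Nup205* between 0.81 and 1.85. The channel gene *Nup54* had levels of 18.2 and 19.1 in WT GV and 31.6 and 30.9 in WT MII, and in KO 18.4 and 18.8 at GV and 27.8 and 24.3 at MII.

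*Nup62*, which encodes the partner of *Nup54* in the channel, was the least repeatable of the 29 members with a mean level of at least 1. Its WT pairs were 10.2 and 9.89 (GV), 16.9 and 8.56 (GVBD), 2.78 and 19.1 (MII). Its KO pairs were 16.1 and 1.57 (GV), 2.05 and 22.4 (GVBD), 28.2 and 25.4 (MII). High and low libraries occurred within the same group in both genotypes, with spike-in-scaled counts up to 11.7-fold apart. The annotated exons of *Nup62* overlap *Il4i1* on the same strand by 97 bases and *Atf5* on the other strand by 82, and their part in this spread was not tested.

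*Nup98* (chromosome 7, 102119398 to 102210176, minus strand), an FG nucleoporin found on both faces of the pore, had a mean level of 29.0. The basket gene *Nup153* led its group with 14.2 and the cytoplasmic gene *Nup214* with 10.9. *Nup210*, a membrane nucleoporin, lay between 0.09 and 0.30 and was at the low end of the pore genes. Of the importin beta class, *Ipo8* (chromosome 6, 148770683 to 148831467, minus strand) was highest with 17.7, ahead of importin beta itself, *Kpnb1*, with 8.94 and transportin *Tnpo1* with 7.19. The exportins were lower, led by *Xpo1* (CRM1, chromosome 11, 23256041 to 23298249, plus strand) with 3.47.

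The 3 other genes taken by symbol carried little or no signal. *Kpna2-ps*, a processed pseudogene that lies within an exon of *Med20* on the other strand, had 8 counts in WT MII replicate 2 and 0 in the other 11 libraries. *Nup62cl* was at 3 counts or fewer in 9 libraries and reached 16 and 13 counts in single GVBD libraries of WT and KO. *Nup210l*, a testis relative of *Nup210*, had 2 to 85 counts. Of the members, 8 share exon bases with another gene on the same strand and 12 with a gene on the other strand. The largest shared stretch, 2583 bases between *Ipo4* and *Gm49378*, falls in *Ipo4* exons of 4669 bases in all, and *Xpo7* shares 39 bases with *Npm2*, an abundant oocyte transcript.

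The change from GV to MII in WT oocytes asks which of these maternal RNAs are cleared. With libraries scaled to the ERCC counts, the median of all 18816 genes tested lay at -1.06 (log2), that is, most RNAs were lower at MII. The members lay above that median: their own median was -0.61, and 29 of 42 tested were above the all-gene median. Of the members, 7 fell past the threshold of an adjusted p-value under 0.05 and an absolute log2 fold change of at least 1, and 0 rose. The 7 are 16.7% of the members tested, against 30.9% of all genes called in either direction and 30.5% called lower.

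*Xpo1*, the general exportin for nuclear export signals, showed the lowest adjusted p of the 7. The spike-in-scaled WT pairs were 994 and 1154 (GV), 2270 and 784 (GVBD), 222 and 163 (MII). Both MII libraries lay below all GV and GVBD libraries. The log2 fold change was -2.48 ± 0.54 (SE, adjusted p = 4.91e-05), 1.42 below the median of all genes. *Ipo13*, a transport receptor that works in both directions, had 220 and 135 scaled counts in WT GV and 41 and 15 in WT MII, a log2 fold change of -2.67 ± 0.75 (adjusted p = 0.00208). *Nup43* had 10552 and 11287 scaled counts at GV and 3763 and 2226 at MII, a log2 fold change of -1.87 ± 0.48 (adjusted p = 7.09e-04).

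*Kpna2* fell as well, from 47697 and 46594 scaled counts in WT GV through 30752 and 36946 in WT GVBD to 23606 and 13496 in WT MII. The 3 pairs did not overlap. Its log2 fold change of -1.35 ± 0.44 (adjusted p = 0.00988) lay only 0.28 below the all-gene median. *Nup155*, a large inner ring scaffold gene, changed by -1.60 ± 0.58 (adjusted p = 0.0208) and *Ipo7*, an importin for ribosomal proteins and histone H1, by -1.62 ± 0.61 (adjusted p = 0.0305). *Kpna1* changed by -2.57 ± 0.98 (adjusted p = 0.0312), on counts of 27 and 82 at GV and 19 and 20 at MII. DESeq2 also called 7 members lower, against 29.1% of all genes, without *Kpna1* (adjusted p = 0.0569) and with *Kpnb1* (-1.13, adjusted p = 0.0257), the gene of importin beta.

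**Figure D2:**
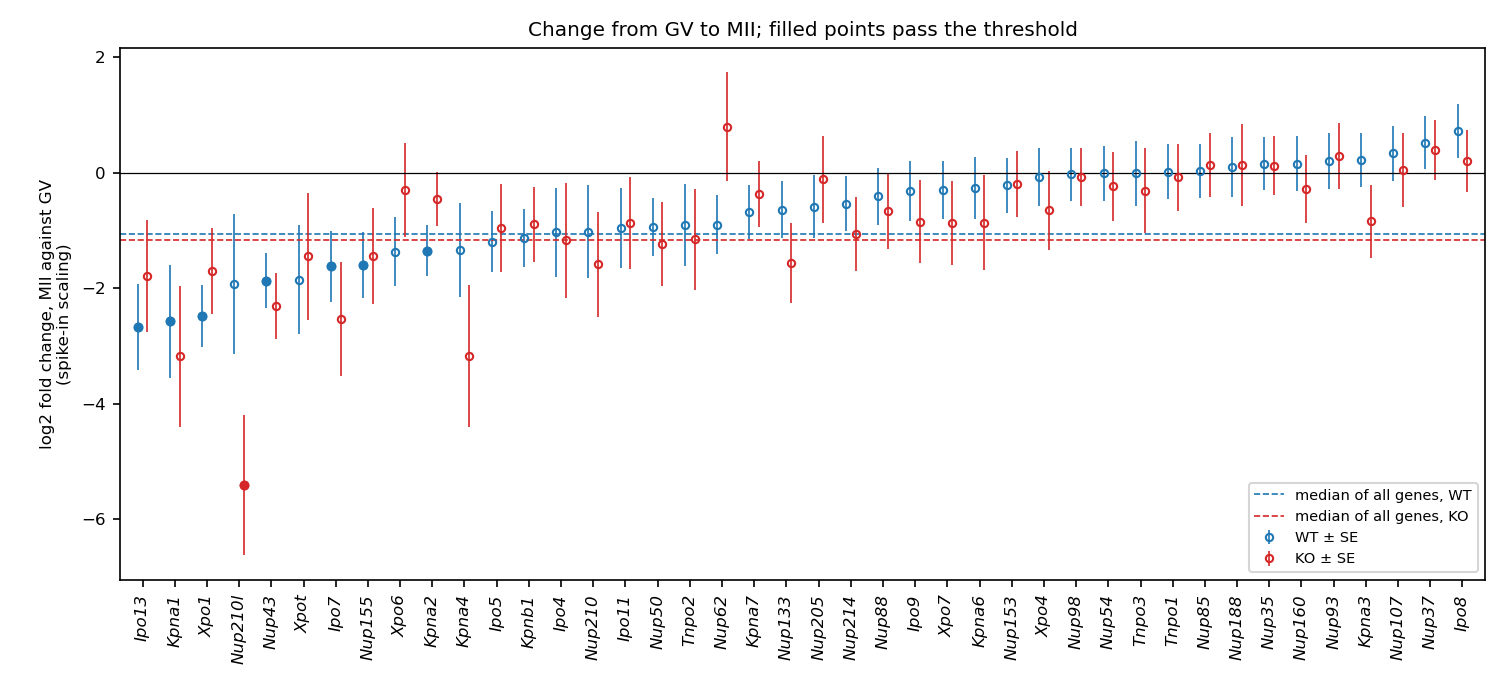
Log2 fold change of MII against GV for 42 members in WT (blue) and KO (red) with standard errors, from spike-in-scaled edgeR fits, ordered by the WT value. Dashed lines mark the medians of all genes at -1.06 in WT and -1.17 in KO, filled points pass the threshold, and the members on the right lie near or above 0 while most genes lie below it.

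The other fixed genes did not pass by edgeR. *Kpnb1* had a log2 fold change of -1.13 ± 0.50 (adjusted p = 0.0693), *Ipo5*, of the same class, -1.19 ± 0.53 (adjusted p = 0.0733) and the importin alpha gene *Kpna7* -0.68 ± 0.47 (adjusted p = 0.290). *Tnpo1* (0.02 ± 0.48), *Nup98* (-0.03 ± 0.46), *Nup153* (-0.22 ± 0.47) and *Nup107* (0.34 ± 0.47) were each close to 0, which on this scale put them 0.85 to 1.40 above the median gene. *Nup214* (-0.53 ± 0.48), *Nup62* (-0.90 ± 0.51) and *Nup210* (-1.02 ± 0.81) were lower, with adjusted p from 0.177 to 0.450. By role, the medians were 0.10 for the 6 Y complex genes, 0.10 for the 5 inner ring genes, -1.01 for the 6 importin alpha genes, -0.95 for the 11 importin beta class genes and -1.36 for the 5 exportins. Nucleoporins had a median of -0.31, with 17 of 20 above the all-gene median and 2 called lower, and karyopherins -0.99, with 12 of 22 above it and 5 called lower.

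Whether the well retained members passed the test depended on the scale. When libraries were scaled by TMM, which assumes that most genes do not change, the all-gene median moved from -1.06 to -0.22 and 6 members were called higher and 3 lower, against 7.06% of all genes called higher and 17% lower. The 6, chosen after their values were seen, were *Ipo8* (1.55 ± 0.20), *Nup37* (1.38 ± 0.18), *Nup107* (1.17 ± 0.20), *Nup93* (1.07 ± 0.15), *Kpna3* (1.07 ± 0.13) and *Nup35* (1.04 ± 0.17), with adjusted p from 0.00459 to 0.0118. With the spike-in the same 6 genes had log2 fold changes from 0.16 to 0.73 and none passed. *Xpo1* (-1.61 ± 0.22), *Nup43* (-1.03 ± 0.13) and *Ipo13* (-1.90 ± 0.51) were called lower under both scalings, and under median-of-ratios scaling *Xpo1* alone of the 3 was called lower. Median-of-ratios scaling called 8 members higher and 1 lower, against 9.94% and 15.7% of all genes. In KO the same 6 had TMM log2 fold changes from 0.12 to 1.66 and none passed. Each of the 6 thus took a larger part of the counted messenger RNA at WT MII, while its amount per spike-in was not shown to rise.

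*Ipo8*, which encodes an importin for Argonaute and other cargo, illustrates the difference. Its level per length had WT pairs of 11.95 and 9.01 (GV), 13.4 and 13.8 (GVBD), 31.5 and 26.4 (MII), with no overlap between MII and the earlier stages. Its spike-in-scaled counts were 8000 and 5684 in WT GV against 14719 and 7929 in WT MII, where the lower MII library lay between both GV libraries. The same scaled counts in KO were 10097 and 9471 at GV and 14064 and 8400 at MII.

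**Figure D3:**
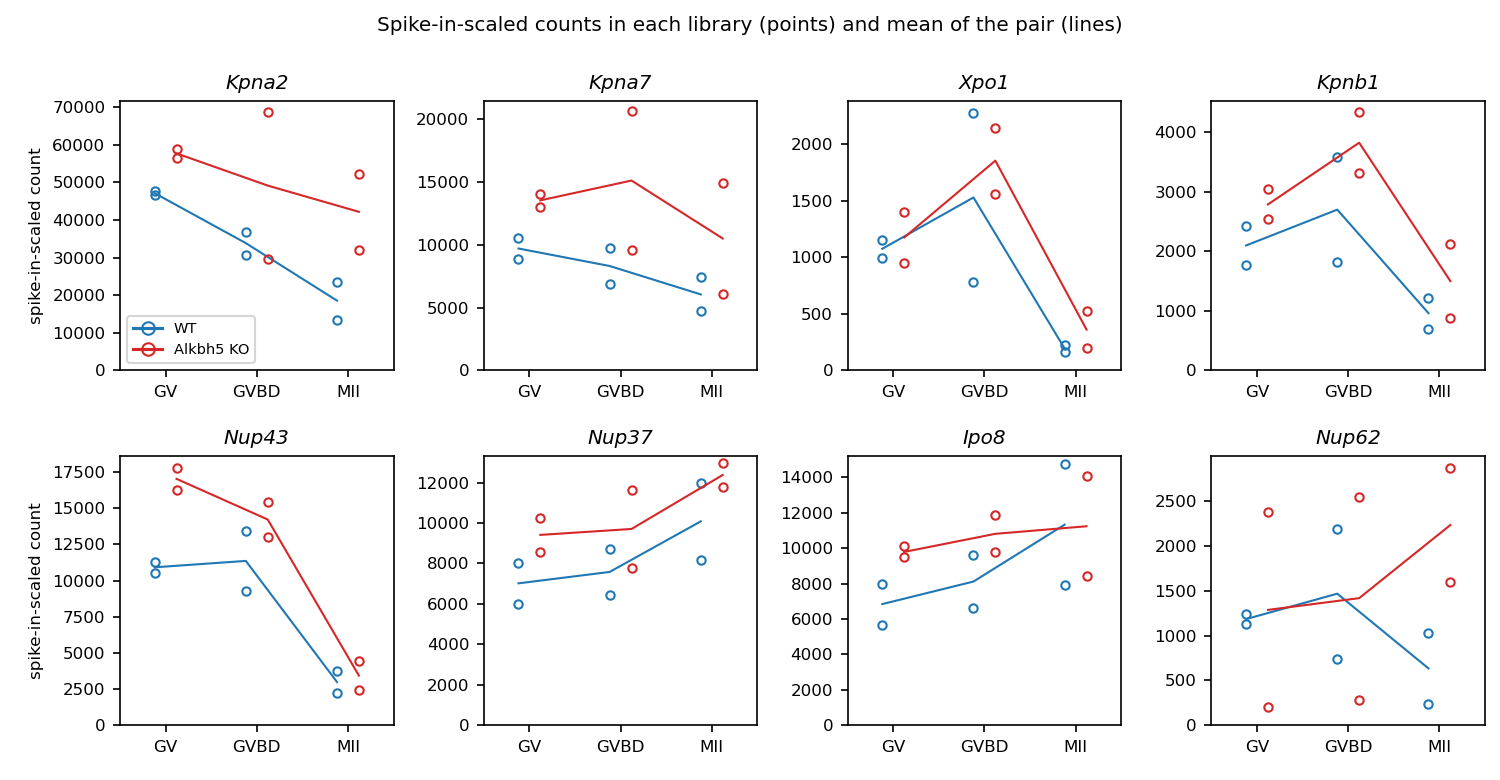
Spike-in-scaled counts of 8 members in each library by stage, with WT in blue, KO in red and lines through the mean of each pair. *Xpo1* and *Nup43* are low at MII in both genotypes, *Nup37* and *Ipo8* are not, *Kpna2* is higher in both KO MII libraries than in both WT MII libraries, and the *Nup62* pairs lie far apart.

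The WT change was then split at GVBD. GVBD against GV gave 0 members called of 42 in WT, with 0 at an unadjusted p under 0.05 and 0 by DESeq2, against 0.0511% of all genes called. The members had a median of 0.12 and the median of all genes was 0.01. MII against GVBD in WT gave 5 members lower and 0 higher of 42, 11.9% against 27.1% of all genes called lower and 27.8% in either direction. The members had a median of -0.62 and all genes -1.11. *Kpna1* changed by -3.35 ± 0.87 (adjusted p = 0.00114) from 86 and 154 counts at GVBD to 19 and 20 at MII, and *Xpo1* by -2.99 ± 0.73 (adjusted p = 4.85e-04). *Nup210l* (-2.88 ± 1.04, adjusted p = 0.0237), the tRNA exportin gene *Xpot* (-2.47 ± 0.85, adjusted p = 0.0174) and *Nup43* (-1.92 ± 0.65, adjusted p = 0.0142) completed the list. DESeq2 called these 5 and also *Ipo5*, *Kpnb1*, *Nup155* and *Nup50*, all lower, against 27.4% of all genes. *Nup210l* and *Xpot* rest on few reads, with 18 and 6 counts for *Nup210l* and 33 and 26 for *Xpot* at MII.

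Under TMM the same comparison called 10 members higher, among 9.64% of all genes, and 2 lower, among 15.6%. The 10 were the 6 named above for MII against GV together with *Nup160*, *Xpo4*, *Nup54* and *Nup85*, with log2 fold changes from 1.04 to 1.52. *Xpo1* and *Kpna1* were the 2 lower. Of these 10 genes, the Y complex contributed *Nup107*, *Nup160*, *Nup37* and *Nup85*, that is, 4 of the 6 scaffold genes of that list. The list was formed after the values were seen, and the share of Y complex genes was not tested.

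In KO oocytes the GV to MII change had a like median and fewer calls. All genes had a median of -1.17 and the members -0.84, with 30 of 42 members above the all-gene median. By edgeR a single member, *Nup210l*, passed, against 3.28% of all genes. The KO pairs of counts were 85 and 64 (GV), 14 and 57 (GVBD), 4 and 2 (MII), and the fitted log2 fold change of -5.41 ± 1.22 (adjusted p = 0.0464) rests on those last 2 values. Leaving out either KO GV library ended this call. *Nup43* had a log2 fold change of -2.31 ± 0.57 (adjusted p = 0.0546 by edgeR and 0.00167 by DESeq2) and *Xpo1* -1.70 ± 0.75 (adjusted p = 0.192), while *Kpna2* had -0.45 ± 0.47 (adjusted p = 0.582), a value that was 0.65 under TMM. DESeq2 called *Nup210l*, *Nup43* and *Ipo7* (-2.54, adjusted p = 0.0466) lower, against 16.3% of all genes. Scaled counts of *Xpo1* were 1396 and 950 in KO GV and 524 and 196 in KO MII, again without overlap.

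The count of calls in KO turned on 1 library. KO MII replicate 1 had 87.9 endogenous counts per ERCC count and replicate 2 had 54.7, and without replicate 1 the number of members lower at MII than at GV became 23 of 42, and MII against GVBD gave 17 lower. The shares of all genes called lower in these reduced fits were 53.9% and 32.4%. These fits rest on KO MII replicate 2 alone for the stage. That library had 2.73% of its counts on mitochondrial genes, against 0.71% to 1.60% in the other 11, and the fewest genes detected (19837, against 21938 to 24436). It also had the highest summed share of the 12 cumulus or granulosa markers. In that sum *Cyp19a1* alone reached 2225 counts in a library, against 2646 for the largest sum. The part of these differences in the counts of calls was not tested. GVBD against GV in KO gave 0 members called of 42, with 1 at an unadjusted p under 0.05 and 0 by DESeq2, against 0.22% of all genes. MII against GVBD in KO gave 0 of 42, with 5 at an unadjusted p under 0.05 and 2 by DESeq2 (*Nup43* and *Xpo1*, both lower, against 12.5% of all genes), against 7.2% of all genes by edgeR. Without KO GVBD replicate 2, *Nup62* was called lower for GVBD against GV, as were 3.46% of all genes. In WT, MII against GV gave 2 members without WT GV replicate 1 (*Kpna1* and *Xpo1*), 1 without WT GV replicate 2 (*Ipo13*), 3 without WT MII replicate 2 (*Nup43*, *Nup62* and *Xpo1*) and 9 without WT MII replicate 1. All were lower, and the shares of all genes called lower were, in that order, 14%, 13.6%, 13.8% and 26%. MII against GVBD in WT gave 1 member without WT GVBD replicate 1 (*Kpna1*), 2 without WT GVBD replicate 2 and 2 without WT MII replicate 2 (*Kpna1* and *Xpo1* each time), and 6 without WT MII replicate 1. The shares of all genes called lower were, in that order, 8.61%, 16.3%, 12.4% and 25%.

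The question whether loss of ALKBH5 left more RNA of transport genes was asked at each stage. No member passed both the adjusted p and the fold threshold in any genotype comparison. KO against WT gave 0 of 42 members at GV, against 0.0977% of all genes called. GVBD gave 0 of 43, against 2.54% of all genes, and MII 0 of 41, against 0.803%. By edgeR at an unadjusted p under 0.05 there were 13 members at GV (31.0%, against 17.9% of all genes), 1 at GVBD (2.33%, against 14.9%) and 1 at MII (2.44%, against 7.32%). DESeq2 called 0 at each stage under both thresholds. At GV, however, 8 members had a DESeq2 adjusted p under 0.05 with a log2 fold change under 1, all higher in KO, against 7.93% of all genes higher at that adjusted p with any fold change. These were *Nup43* (0.64, adjusted p = 0.0015), *Kpna3* (0.65, adjusted p = 0.00315), *Nup133*, *Nup35*, *Nup50*, *Nup98*, *Kpna6* and *Kpna7*. By edgeR 0 members had an adjusted p under 0.05 there. With the 3 stages fitted together, 0 of 43 passed, against 1.26% of all genes, with 5 at an unadjusted p under 0.05 (11.6%, against 18.8% of all genes) and 0 by DESeq2 under both thresholds. In that DESeq2 fit 1 member, *Nup35*, had an adjusted p under 0.05 below the fold threshold (log2 fold change 0.65 ± 0.20, adjusted p = 0.0213). By edgeR 0 members did. The share of all genes at that adjusted p was not counted for this fit.

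At GV, 40 of 42 members were higher in KO on the spike-in scale, with a median log2 fold change of 0.41. The median of all genes was 0.36, and 23 of 42 members lay above it. Under TMM the members' median at GV was 0.06 and that of all genes 0.02, and 3 members in place of 13 had an unadjusted p under 0.05. At GVBD the members had a median of 0.32 and all genes 0.23, and at MII the members had 0.21 and all genes 0.30. At GV the members lay between -0.10 and 0.96 apart from *Nup210l* at 1.86, which was not tested at MII. At MII they lay between -1.19 and 1.81. Standard errors differed as well: by DESeq2, *Kpna2* had 0.143 at GV and 0.627 at MII, and *Nup43* 0.159 and 0.641. *Nup62* went the other way, with 1.413 and 0.763. The part of this in the wider range was not tested.

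**Figure D4:**
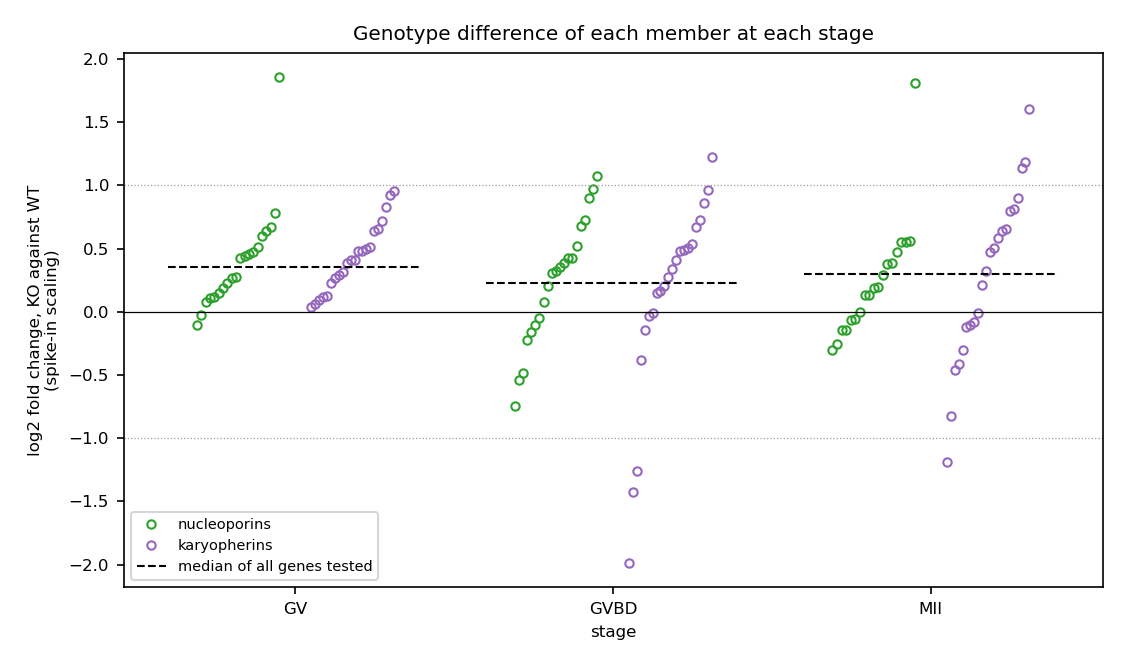
Log2 fold change of KO against WT for each member tested at each stage, spike-in scaled, with nucleoporins in green, karyopherins in purple and a dashed line at the median of all genes. Members cluster around the dashed line at GV and spread further at GVBD and MII, and none passed the test.

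*Kpna2* at MII had pairs that did not overlap between genotypes, and the difference did not pass the test. Scaled counts were 23606 and 13496 in WT MII against 52378 and 31989 in KO MII, and the log2 fold change was 1.19 ± 0.64 (unadjusted p = 0.0658, adjusted p = 0.765). Over all stages it was 0.67 ± 0.27 (unadjusted p = 0.0264, adjusted p = 0.202), 0.38 above the all-gene median of 0.29. *Kpna7* had scaled counts of 7402 and 4684 in WT MII against 14925 and 6066 in KO MII, which overlap, and a log2 fold change of 0.80 ± 0.73 (adjusted p of 1). Its difference over all stages was 0.71 ± 0.27 (unadjusted p = 0.0206, adjusted p = 0.183).

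*Xpo1*, with 222 and 163 scaled counts in WT MII, had 524 and 196 in the KO libraries, a log2 fold change of 0.90 ± 0.92 (adjusted p of 1), and *Nup98* 0.56 ± 0.70 (adjusted p of 1). *Nup62*, with 235 and 1033 scaled counts in WT MII against 2861 and 1600 in KO MII, had the only unadjusted p under 0.05 at MII (log2 fold change 1.81 ± 0.85 by edgeR, adjusted p = 0.552), and its KO pairs at GV and at GVBD lay further apart than that within a group. At GVBD that place was taken by *Kpna1* with -1.99 ± 0.73 (adjusted p = 0.171), on 86 and 154 counts in WT and 12 and 39 in KO.

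The stage-by-genotype interaction for GV and MII gave 0 of 42 members, as it gave 0% of all 20807 genes, with 1 member (*Nup210l*) at an unadjusted p under 0.05 and 0 members by DESeq2. The members had a median interaction of -0.18 and all genes -0.07. *Xpo1*, which passed in WT and not in KO, had an interaction of 0.78 ± 0.81 (adjusted p of 1), and *Nup43* -0.44 ± 0.65 (adjusted p of 1). The calls in WT alone therefore do not show a genotype difference.

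Pathway partners outside the symbol rule were read beside the members. Of the 12 further pore genes, such as the basket gene *Tpr* and the membrane gene *Ndc1*, 11 were tested for MII against GV in WT and 0 passed, with a median of -0.14 and 10 of 11 above the all-gene median. Of the 10 genes of the Ran cycle and its partners, 4 were called lower, against the 30.5% of all genes called lower in that comparison: *Ranbp3* (-3.57 ± 0.62, adjusted p = 1.44e-07), the Ran cofactor *Ranbp1* (-2.00 ± 0.52, adjusted p = 8.90e-04), the messenger RNA export receptor *Nxf1* (-1.83 ± 0.52, adjusted p = 0.00236) and *Snupn* (-1.15 ± 0.46, adjusted p = 0.0426), the snurportin adaptor. Their list median was -1.20. In KO none of these passed for MII against GV, and *Nxf1* was lower for MII against GVBD (-2.87 ± 0.82, adjusted p = 0.0278). *Nupl1*, the older symbol of *Nup58*, was listed at 0 to 36 counts, and its exons share 2102 bases with other genes on the same strand.

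Stored maternal RNAs can be lengthened or shortened at the poly(A) tail during maturation, and by the study's methods, though not by the labels, the libraries were primed on that tail. Cytoplasmic polyadenylation elements with the letters TTTTAT and the polyadenylation signal AATAAA were therefore searched on the RNA strand in the last 100 bases of 1 annotated transcript per gene, as a description of sequence. TTTTAT was found in 10 of 40 members with such a window (25.0%) and in 13.8% of 19794 genes, AATAAA in 29 (72.5%) and 64.5%, and the Pumilio motif TGTANATA in 1 (2.5%, *Kpna2*) and 4.3%. *Nup43*, *Ipo13*, *Kpna2-ps* and *Nup210l* had no window of that length. The 10 holders of TTTTAT were *Ipo5*, *Ipo8*, *Kpnb1*, *Nup35*, *Nup37*, *Nup54*, *Nup62*, *Nup98*, *Xpo4* and *Xpo7*. Of these, 5 are among the 10 members that TMM called higher at MII than at GVBD in WT. The share of TTTTAT among all genes called higher there was not counted. The 30-base windows of these 5 members are shown 5′ to 3′ on the RNA strand, with TTTTAT or AATAAA in capitals.
*Nup35*, chr2:80658873-80658902, plus strand: tccaAATAAActttgtcaatTTTTATgtgc
*Nup37*, chr10:88178306-88178335, plus strand: ccttatTTTTATatcaaacatactgtaaat
*Nup54*, chr5:92415540-92415569, minus strand: AATAAAttgttaatttgtaaTTTTATgtaa
*Ipo8*, chr6:148770710-148770739, minus strand: aggaacTTTTATgaatgtactgtaaaataa
*Xpo4*, chr14:57577521-57577550, minus strand: aaatatgttttcactaaatatTTTTATtac

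The windows around AATAAA of 3 members that edgeR called lower in WT with the spike-in are shown as examples. *Xpo1* and *Kpna1* were called at MII against both GV and GVBD, and *Kpna2* only against GV. None of the 3 holds TTTTAT in its last 100 bases, whereas *Ipo5* and *Kpnb1*, called lower by DESeq2 against GVBD, do. Whether the motif goes with the direction of change was not tested.
*Xpo1*, chr11:23298220-23298249, plus strand: acacttAATAAAgtgcttaaattacagtgt
*Kpna2*, chr11:106988637-106988666, minus strand: cctgtaAATAAAgattaaagttccattctt
*Kpna1*, chr16:36037082-36037111, plus strand: gtgctaAATAAAcatttcagctgtctgacc

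The spacing differed between genes: in *Nup35*, *Nup54* and *Xpo4* the last TTTTAT starts 10, 10 and 9 bases from the annotated end, in *Ipo8* 51 and in *Nup37* 77. The last AATAAA starts 26 bases from the end in *Nup35* and 30 in *Nup54*, so that this TTTTAT lies downstream of it. In *Ipo8* (32) and *Nup37* (23) TTTTAT lies upstream of AATAAA, and *Xpo4* has no AATAAA in the window. Whether any of these matches acts as a cytoplasmic polyadenylation element was not tested. *Nup107*, *Nup160*, *Nup93*, *Nup85* and *Kpna3* were called higher under TMM without TTTTAT in that window. *Ipo5*, *Kpnb1*, *Nup62*, *Nup98* and *Xpo7* hold it and were not called higher. DESeq2 called *Ipo5* (-1.35, adjusted p = 0.0493) and *Kpnb1* (-1.49, adjusted p = 0.0252) lower for MII against GVBD in WT. It called 27.4% of all genes lower there. Whether other annotated ends of these genes are used in oocytes was not tested, and the match of a motif is no evidence that a factor binds there.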

How the data were processed

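Small pools of mouse oocytes of 2 genotypes and 3 stages were sequenced as 12 libraries. The table the authors deposited holds raw counts (integers) for each gene and library. By their methods and processing notes, trimming was done with Cutadapt 1.9 and alignment with HISAT2 2.0.4 to mm10 plus the ERCC sequences, after which unique alignments went to StringTie 1.3.4d. These versions are those of the submitters' processing notes, and the study's reporting form names other versions of Cutadapt and HISAT2. The annotation release, the strand setting and the tool that wrote integer counts are not given in the sources used here. The extraction protocol of the labels describes a bulk preparation and the methods a SMART-type one with poly(A) priming. PCR reads without molecular identifiers are not independent molecules, and unique mapping lowers near-identical copies such as *Kpna2* and its pseudogene.

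Symbols matched 52073 of 56691 genes (91.9%). Positions, exon lengths and end windows come from GENCODE M21 (GRCm38). Each comparison was fitted on all genes kept by filterByExpr with edgeR 4.0.16 (glmQLFit, glmQLFTest, R 4.3.3), two-sided, with library sizes in proportion to summed ERCC counts and Benjamini-Hochberg adjustment over all genes tested. A gene was called at an adjusted p-value under 0.05 and an absolute log2 fold change of at least 1. Standard errors are the absolute log2 fold change over the root of F. The 11 comparisons were KO against WT at each stage, over all stages and in the GV to MII change, and the 3 stage changes in each genotype. The sign of fitted changes was checked on simulated counts with the same spread for every gene, so error rates in these data were not measured. Alternatives were TMM and median-of-ratios scaling, no filter, DESeq2 1.42.0 with ERCC size factors, a replicate block, crossed numbers (added after seeing the data) and each library left out.

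The members and lists were chosen with earlier results of these data known. Genes named are members called in a comparison (up to 6 per direction), the highest member of each role list, 12 fixed genes, those with few counts, and others said to be chosen after their values were seen.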

Additional observations from a re-analysis of the deposited data

How the results depend on the processing

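The number of members past both thresholds was 0 under every setting tried for KO against WT at each stage and over all stages, for GVBD against GV in WT and for the interaction of genotype with the GV to MII change. The other counts moved. MII against GVBD in WT, with 5 members called, gave 12 under TMM and under median-of-ratios scaling (10 higher and 2 lower each), 9 with DESeq2, 11 with a replicate block and 1 to 6 with 1 library left out. MII against GV in WT called 7 members, all lower. It gave 9 under TMM (6 higher and 3 lower) and 9 under median-of-ratios scaling (8 higher and 1 lower). DESeq2 gave 7, no filter 5 and a replicate block 5, all lower. Of all genes, 5821 of 18816 were called, 4522 under TMM, 4825 under median-of-ratios scaling and 5520 with DESeq2. Without a filter 5427 of 28352 were called, and with a block 4973. Counts with 1 library left out are given above. MII against GV in KO, with 1, gave 2 without a filter, 3 with DESeq2, 4 with a replicate block and 0 to 23 with 1 library left out. MII against GVBD in KO, with 0, gave 2 with DESeq2, 2 with a replicate block and 0 to 17 with 1 library left out, and GVBD against GV in KO gave 0 to 1. Calls over all genes moved as well. In WT, MII against GVBD called 5339 of 19211 genes, 4847 under TMM, 5003 under median-of-ratios scaling, 5449 with DESeq2 and 6099 with a block. In KO, MII against GV called 616 of 18777, 2659 of 28535 without a filter, 3068 with DESeq2 and 2462 with a block. MII against GVBD in KO called 1293 of 17966, 2261 with DESeq2 and 2443 with a block. The cause of these moves was not tested. Deviations of same-numbered libraries correlated at -0.22 to 0.24 over 13273 genes. With 2 libraries in a group, this cannot settle whether the replicate numbers pair the libraries. Crossed numbers called 0 members in the 3 comparisons where that correlation was under -0.1. In MII against GVBD in WT the correlation was 0.22. There crossed numbers called 1 member and 1768 of 19211 genes, and the replicate block 11 members and 6099 genes.

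For MII against GV in WT, small values changed sign with the scaling. TMM gave 0.16 for *Kpna7*, 0.83 for *Nup98*, 0.61 for *Nup153*, 0.24 for *Nup62* and 0.32 for *Nup214*. Median-of-ratios scaling gave 0.28 for *Kpna7*, 0.96 for *Nup98*, 0.74 for *Nup153*, 0.12 for *Nup210*, 0.35 for *Nup62* and 0.44 for *Nup214*. *Tnpo1* was -0.09 with a replicate block. With 1 library left out, *Tnpo1* ranged from -0.67 to 0.49, *Nup98* from -0.35 to 0.23, *Nup107* from -0.13 to 0.69, *Nup153* from -0.67 to 0.13, *Nup35* from -0.04 to 0.33, *Nup93* from -0.06 to 0.43 and *Kpna3* from -0.15 to 0.53. For MII against GV in KO, *Kpna2* was 0.65 under TMM and 0.67 under median-of-ratios scaling. The interaction of *Xpo1* ranged from -0.10 to 1.32 with 1 library left out. Leaving out 1 library of a pair assumes that the lone library varies like the others. Members under about 100 counts, such as *Kpna1*, *Kpna4*, *Xpot* and *Nup210l*, are limited by depth and by the unknown number of molecules behind each count.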
